A study of Mus musculus with 6 samples.

Results

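Heat shock proteins and J-domain chaperones were examined in mouse astrocytes, the star-shaped support cells of the brain, after treatment with quinpirole. The set holds every protein-coding gene whose symbol begins with Hsp or Dnaj, together with *Cryab* and without *Hspg2* and *Hspbap1*, which came to 71 of the 17193 genes in the files. By symbol the members fell into 9 genes of the small heat shock family (Hspb genes and *Cryab*), 13 of the Hsp70 family (Hspa genes and *Hsph1*), 3 of the Hsp90 family, 43 of the J-domain family, and 3 others (*Hspd1*, *Hspe1* and *Hspbp1*). All mice were wild-type C57BL/6 animals aged 3 months. The mock group had received saline and the other group quinpirole, an agonist of the dopamine receptor DRD2, and each group is represented by 3 libraries. Astrocytes were obtained from enzymatically digested brain by magnetic beads against ACSA-2, the surface protein encoded by *Atp1b2*, and their polyadenylated RNA was sequenced. The study compared the libraries to look for genes that act downstream of DRD2, whereas the comparison made here is between members and families of the chaperone set. The sources do not say whether each library came from a single mouse, so the p-values below measure the spread between these libraries, which may be partly technical. In whole-sample RNA, a smaller number of cells of one type and less RNA per cell cannot be told apart.

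Molecular chaperones bind proteins that are unfolded or not yet folded. Small heat shock proteins hold unfolded chains without using ATP, Hsp70 proteins bind and release them in a cycle driven by ATP, J-domain proteins deliver the chains and start that cycle, and Hsp90 proteins act later on receptors and kinases that are almost folded. Hsp110-type proteins such as *Hsph1* and *Hspa4* reset Hsp70 by nucleotide exchange, and the mitochondrial pair *Hspd1* and *Hspe1* (Hsp60 and Hsp10) folds proteins inside a closed chamber. Many of these genes are switched on by heat shock factor HSF1, which binds arrays of the unit GAA in alternating orientation, and the chaperones of the endoplasmic reticulum (ER) are switched on through a different sequence when that compartment holds unfolded protein. In astrocytes *Cryab*, the gene for αB-crystallin, is known for its presence in the Rosenthal fibres of Alexander disease.

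Expression is given as FPKM, the number of fragments scaled to transcript length and library depth, so that levels can be set side by side between genes. The FPKM values of all genes added up to 401769 to 413730 in the mock libraries and 425244 to 437164 in the quinpirole libraries, and the steps between the lowest values put the depth at 22300000 to 27400000 fragments per library. The levels of astrocyte genes were uneven. Over the 6 libraries *S100b* stood at 5.01 to 6.18 FPKM and *Slc1a2* at 5.15 to 8.55 FPKM. *Aldh1l1* stood at 165 to 182 FPKM and *Gfap* at 482 to 560 FPKM. The mural cell markers *Acta2* (2518 to 2881 FPKM) and *Tagln* (2228 to 2605 FPKM) were far higher still, and the summed level of the 4 mural markers was 4794 to 5127 FPKM in mock and 5146 to 5507 FPKM in quinpirole libraries, although *Rgs5*, a defining pericyte gene, stayed under 1 FPKM. Microglial markers summed to 314 to 332 FPKM in mock and 332 to 365 FPKM in quinpirole libraries, ependymal markers to 130 to 144 and 126 to 135 FPKM, and neuronal markers to 70.6 to 76.0 and 82.5 to 89.0 FPKM, the last almost wholly from *Stmn2* and *Tubb3* with *Snap25* and *Rbfox3* under 0.1 FPKM. Oligodendrocyte and endothelial markers summed to at most 5.15 and 7.34 FPKM in any library. *Acta2* and *Tagln* lay higher in every quinpirole library without passing the test described below (limma adjusted p = 0.171 and 0.199), whereas the mural receptor gene *Pdgfrb* was called lower, at 25.0 to 27.2 FPKM in mock and 20.7 to 21.6 FPKM in quinpirole libraries (limma adjusted p = 0.0227). The microglial list also went both ways, with *C1qa* higher and *Csf1r* and *Cx3cr1* lower in every quinpirole library and none of them called (limma adjusted p = 0.0526, 0.0531 and 0.140). *Stmn2* was called higher (limma adjusted p = 0.0322), and the astrocyte genes *Atp1b2* and *Slc1a2* were called lower (limma adjusted p = 0.0382 and 0.0297). Small heat shock genes such as *Cryab* and *Hspb1* are also muscle genes, and the part that mural cells play in their levels was not tested.

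The upstream sequences below were chosen because they carry the DNA words by which these chaperones are known to be induced, and because they belong to members whose values are described further on. They are RefSeq sequences on GRCm38.p6, written 5′ to 3′ on the strand of the gene. *Hspa1a* (chr17:34972157-34972306, minus strand) and *Hspa1b* (chr17:34959239-34959388, minus strand) are shown for the 150 bases before their start sites, as is *Hspb1* (chr5:135887769-135887918, plus strand). Capitals mark GAANNTTC or TTCNNGAA, a pair of facing GAA units, which reads the same on both strands.
Hspa1a: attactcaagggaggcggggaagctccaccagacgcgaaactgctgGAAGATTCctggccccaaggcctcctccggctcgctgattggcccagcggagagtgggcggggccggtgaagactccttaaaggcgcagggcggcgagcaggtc
Hspa1b: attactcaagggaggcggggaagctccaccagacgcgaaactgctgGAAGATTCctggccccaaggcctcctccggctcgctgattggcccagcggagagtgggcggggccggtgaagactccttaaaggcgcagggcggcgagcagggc
Hspb1: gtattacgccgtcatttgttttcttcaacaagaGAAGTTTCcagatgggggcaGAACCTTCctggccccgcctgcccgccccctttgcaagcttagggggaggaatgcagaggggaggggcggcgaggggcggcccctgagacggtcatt
The windows of *Hspa1a* and *Hspa1b* were identical at 149 of 150 positions, so the genes of this pair are near copies upstream as well as in their transcripts.

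For *Hspe1* (chr1:55088053-55088082, plus strand) and *Hsph1* (chr5:149636351-149636380, minus strand), 30 bases around the same kind of match are shown. Both stretches lie before a RefSeq start site of the gene. That of *Hsph1* nevertheless lies mostly inside the gene as annotated by GENCODE (149614287 to 149636376). *Hspe1* and *Hspd1* lie head to head on chromosome 1 and their annotated transcripts overlap at the start, so the array of *Hspe1*, which holds overlapping matches, was also found on the opposite strand in the window of *Hspd1*.
Hspe1: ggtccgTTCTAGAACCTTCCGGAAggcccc
Hsph1: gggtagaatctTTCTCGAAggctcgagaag
In the ER genes *Hspa5* (chr2:34772020-34772049, plus strand) and *Hsp90b1* (chr10:86705527-86705556, minus strand), and in the 150 bases before the start site of *Dnajc3* (chr14:118937782-118937931, plus strand), capitals mark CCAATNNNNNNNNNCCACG, the ER stress element, searched on both strands. The match shown for *Hsp90b1* reads in reverse, and its promoter window holds another, forward match farther upstream. The stretch of *Hspa5* lies before its RefSeq start site but inside the gene as annotated by GENCODE, which begins at 34771970.
Hspa5: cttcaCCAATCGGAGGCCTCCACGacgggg
Hsp90b1: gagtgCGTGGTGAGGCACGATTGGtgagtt
Dnajc3: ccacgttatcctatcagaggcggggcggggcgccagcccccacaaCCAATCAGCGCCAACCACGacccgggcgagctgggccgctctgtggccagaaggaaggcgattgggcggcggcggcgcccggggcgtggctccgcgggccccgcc

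In promoter windows running from 250 bases before to 50 bases after the start site, a facing pair of GAA units was present in 15 of the 56 members with a RefSeq entry (26.8%), against 16.97% of the 27025 genes of the table. Among 9 members listed as HSF1 targets it was present in 7, namely *Dnaja1*, *Hspa1a*, *Hspa1b*, *Hspb1*, *Hspd1*, *Hspe1* and *Hsph1*. The longer array GAANNTTCNNGAA or TTCNNGAANNTTC, which contains the facing pair, was found in 0.66% of all genes and in 4 members (*Dnajb6*, *Hspd1*, *Hspe1* and *Hsph1*). In *Hsph1* this array lies after the RefSeq start site and is not the match printed above. The ER stress element occurred in 0.14% of all genes and in *Hspa5*, *Hsp90b1* and *Dnajc3*, that is, 3 of 7 ER members. These are matches of letters in a window and say nothing of whether a factor was bound. No entry was found for 15 members, among them *Cryab*, *Hspa8*, *Hsp90aa1* and *Hsp90ab1*.

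The most abundant member was *Hspa8*, the constitutive cytosolic Hsp70, at a mean of 611 FPKM over the 6 libraries. *Hsp90ab1*, the constitutive cytosolic Hsp90, followed at 568 FPKM and did not overlap it in any library. The next places were held by small heat shock genes, *Hspb1* (Hsp25 in the mouse) at 332 FPKM, *Cryab* at 294 FPKM and *Hspb8*, a partner of the co-chaperone BAG3, at 237 FPKM. *Hspb1* and *Cryab* overlapped in range, as did *Hspb8* and the ER chaperone *Hspa5* (BiP) at 231 FPKM. The inducible cytosolic *Hsp90aa1* (178 FPKM) and the ER form *Hsp90b1* (168 FPKM) also overlapped. These 8 genes supplied 65.1% of the FPKM summed over all members. Of the 50-base words of the longest transcript, 52.7% for *Hspa8*, 51.6% for *Hspb1* and 58.5% for *Hsp90aa1* also occur in transcripts of other genes. How reads were divided among such transcripts is not given in the sources used here, so the levels of *Hspa8*, *Hspb1* and *Hsp90aa1* are uncertain.

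J-domain genes were more evenly spread and lower. The highest of them, *Dnaja1*, a general partner of Hsp70, averaged 74.5 FPKM, only 4 of 43 reached a mean of 50 FPKM, and the family median was 15.6 FPKM. The heat-inducible Hsp70 genes were low beside their constitutive relative, with *Hspa1b* at 12.9 to 15.9 FPKM and *Hspa1a* at 9.91 to 11.6 FPKM over the 6 libraries. In all, 63 members had a mean of at least 1 FPKM and were tested. The other 8 were *Hspb3*, *Hspb7*, *Hspb9*, *Hspa12b*, *Dnajb7*, *Dnajc22*, *Dnajc5b* and *Dnajc6*, which include the muscle gene *Hspb7*, the testis gene *Hspb9* and *Dnajc6*, the neuronal form of auxilin. *Hspb7* lay between 0.0534 and 0.140 FPKM, and *Dnajc5b* was listed at 0 in 5 of 6 libraries.

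**Figure D1:**
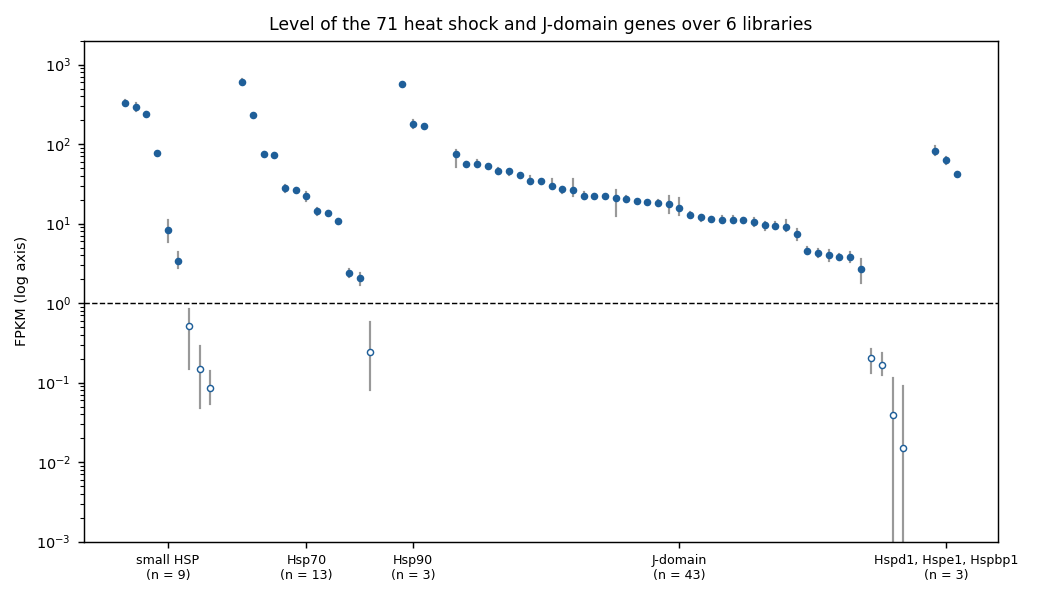
Mean FPKM of each of the 71 members over the 6 libraries (points, log axis), ordered by level within each family, with lines from the lowest to the highest library. Open points lie under the dashed line at 1 FPKM and were not tested, and lines that reach the lower edge belong to genes listed at 0 in at least 1 library. *Hspa8* at 611 FPKM and *Hsp90ab1* at 568 FPKM stand highest, and 4 of 43 J-domain genes lie above 50 FPKM.

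The question of the comparison was which members differed between quinpirole and mock libraries. With limma on log2(FPKM + 1) and Benjamini-Hochberg adjustment over all 12255 tested genes, 8 of the 63 tested members passed an adjusted p of 0.05, 6 of them higher and 2 lower after quinpirole. Among all tested genes 5.74% were called higher and 5.18% lower. Of the same 12255 genes, 6593 had a positive and 5662 a negative difference. The 6 higher members were *Hspb11*, *Cryab*, *Hspb8*, *Hspd1*, *Hspe1* and *Dnajc8*, and the 2 lower members were *Hspa1b* and *Hsph1*. Except for *Hspb11*, with a ratio of mean FPKM of 1.6, the 8 differed by 1.10-fold to 1.16-fold upward or to 0.84 of the mock level. Since the added 1 draws log2 differences toward 0, those of weakly expressed genes are understated. Quinpirole and mock libraries did not overlap in 21 members that lay higher and 8 that lay lower, and the corresponding shares of all tested genes were 20% and 16.9%. Adding the 71 members together gave 3862 to 3988 FPKM in mock and 4051 to 4214 FPKM in quinpirole libraries, which is 0.960% to 0.975% and 0.953% to 0.967% of the library totals, so the share of the total overlapped between the groups.

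All 6 tested small heat shock genes had a positive difference, against 6593 of all 12255, although *Hspb1* and *Hspb6* turned negative with quantile normalization or length correction. Of the 6, 3 passed the test, against 5.74% of all tested genes called higher. After length correction 1 of them (*Hspb11*) passed, against 2.09% of all tested genes. The median difference of the family was 0.17 on the log2 scale, against 0.02 for all tested genes. *Hspb11* encodes IFT25, a subunit of the intraflagellar transport machinery that builds cilia, and lies on chromosome 4 (107253593 to 107279938, plus strand, GRCm38). Its FPKM was 5.84, 6.63 and 6.5 in the mock libraries and 10.1, 9.13 and 11.0 in the quinpirole libraries, in the order of their replicate numbers as for all values below. Every quinpirole library was above every mock library, and *Hspb11* had the largest fitted difference of the set, 0.60 ± 0.08 on the log2 scale (SE, limma adjusted p = 0.0225). It also had the least abundant transcript of the 8, at a mean of 6.32 ± 0.42 FPKM in mock (SD, n = 3).

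*Cryab* (chromosome 9, 50751325 to 50756636, plus strand) stood at 273, 262 and 284 FPKM in mock libraries and at 315, 325 and 308 FPKM in quinpirole libraries. The groups did not overlap, and the difference was 0.21 ± 0.04 (limma adjusted p = 0.0297). For *Hspb8* (chromosome 5, 116408491 to 116422864, minus strand) the values were 228, 227 and 224 FPKM against 251, 249 and 245 FPKM. Its libraries were the most tightly grouped of the family, and the difference of 0.13 ± 0.03 passed the test (limma adjusted p = 0.0410). It shrank to 0.02 under quantile normalization and to 0.04 after length correction and then did not pass (limma adjusted p = 0.748 and 0.534). *Hspb1*, the most abundant small heat shock gene, gave 322, 311 and 334 FPKM in mock and 324, 357 and 346 FPKM in quinpirole libraries. The groups overlapped and the difference of 0.09 ± 0.05 did not pass (limma adjusted p = 0.250). After correction for transcript length it turned to -0.04, and 51.6% of the 50-base words of its longest transcript also occur in other transcripts, mainly those of the pseudogene *Hsp25-ps1*. *Hspb6*, which is abundant in smooth muscle, differed by 0.04 with overlapping groups, and was 74.9 to 80.8 FPKM throughout. *Hspb2* starts head to head with *Cryab*, and its transcript overlaps that of *Cryab* on the opposite strand. The preparation is not stated to keep strand, so reads of the shared stretch cannot be assigned. This stretch makes up 17% of the exonic bases of *Cryab* and 30.2% of those of *Hspb2*. *Hspb2* was far lower than *Cryab*, at 2.77 to 4.35 FPKM, and how much of its level comes from reads of *Cryab* was not tested.

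In the Hsp70 family most differences were negative. Of its 12 tested genes 8 had a negative difference, against 5662 of all 12255. Of the 12, 2 were called lower (5.18% of all tested genes were), none was called higher, and the median was -0.08 on the log2 scale. Of these 12, 5 were lower in every quinpirole library than in every mock library, and 1 (*Hspa9*) was higher. The corresponding shares of all tested genes were 16.9% and 20%. *Hsph1*, an Hsp110-type exchange factor that is induced together with the heat-inducible Hsp70 genes (chromosome 5, 149614287 to 149636376, minus strand), gave 30.8, 30.3 and 29.9 FPKM in mock and 26.2, 24.8 and 25.8 FPKM in quinpirole libraries. Its groups were separate and it fell by 0.24 ± 0.04 on the log2 scale (limma adjusted p = 0.0246). *Hspa1b*, a heat-inducible cytosolic Hsp70 (chromosome 17, 34956436 to 34959238, minus strand), gave 15.4, 15.8 and 15.9 FPKM against 12.9, 13.3 and 13.5 FPKM. It fell by 0.24 ± 0.04 (limma adjusted p = 0.0258), and the groups did not overlap.

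Its neighbour *Hspa1a* (chromosome 17, 34969190 to 34972156, minus strand) is nearly the same gene, and 58.8% of the 50-base words of *Hspa1a* occur in the transcript of *Hspa1b*. How the authors' counting divided reads between the pair is not given in the sources used here, so the values of the single genes are uncertain. *Hspa1a* stood at 11.6, 11.6 and 11.0 FPKM in mock and 9.91, 10.6 and 10.0 FPKM in quinpirole libraries, without overlap, and its difference of -0.15 ± 0.05 did not pass (limma adjusted p = 0.102). With both genes added the level was 27.0, 27.4 and 26.8 FPKM in mock and 22.8, 23.9 and 23.5 FPKM in quinpirole libraries. The sum depends less than either gene on how reads were divided between them, though still somewhat since their lengths differ, and it differed by -0.20 ± 0.04 (limma adjusted p = 0.0273). On the estimated depth, *Hspa1b* corresponds to 1136 to 1217 fragments in mock and 844 to 959 fragments in quinpirole libraries. These fragment numbers are not scaled for depth. The lowest, 844, belongs to quinpirole library 3, which had the lowest depth at 22300000 fragments.

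*Hspa4l* and *Hspa4*, also Hsp110-type exchange factors, were lower in every quinpirole library without passing the test. *Hspa4l* gave 24.9, 23.7 and 22.7 FPKM in mock and 21.4, 19.5 and 21 FPKM in quinpirole libraries, a difference of -0.20 ± 0.05 (limma adjusted p = 0.0572). That of *Hspa4* was -0.08 (limma adjusted p = 0.164), at 74.7 ± 2.37 and 70.4 ± 0.76 FPKM (SD, n = 3). With a minimum mean of 5 FPKM, where fewer genes were tested, *Hspa4l* passed at an adjusted p of 0.0490, and after length correction its difference was -0.07. The constitutive members did not pass the test. *Hspa8* averaged 595 ± 13.7 FPKM in mock and 627 ± 38.9 FPKM in quinpirole libraries, with overlapping groups (difference 0.07 ± 0.05, limma adjusted p = 0.365), and its sign turned to -0.10 under quantile normalization. *Hspa5* (BiP) stood at 227 to 235 FPKM in all 6 libraries, a difference of -0.02 ± 0.03 (limma adjusted p = 0.777). *Hspa9* (mortalin), the Hsp70 of mitochondria, was 72.2 ± 1.24 FPKM in mock and 77.6 ± 2.22 FPKM in quinpirole libraries, and its difference of 0.10 ± 0.04 did not pass (limma adjusted p = 0.105) although the libraries did not overlap.

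**Figure D2:**
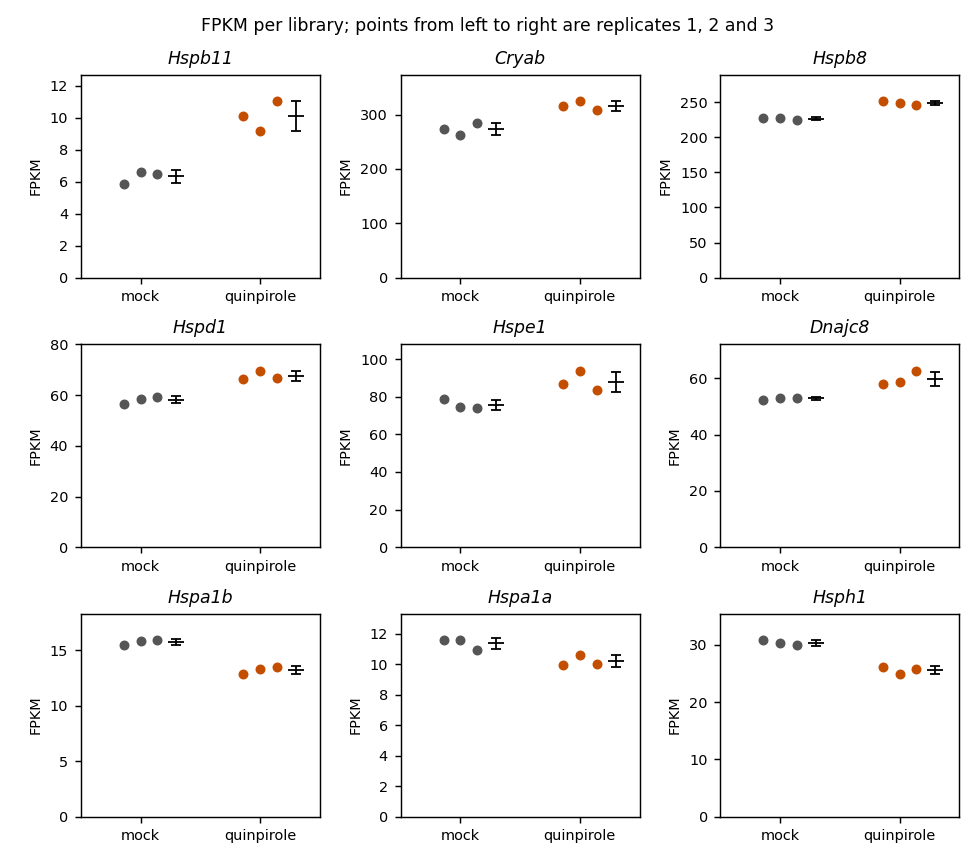
FPKM in each library (points; replicates 1 to 3 from left to right) with the mean and SD of the group (bars) for the 8 members past an adjusted p of 0.05 and for *Hspa1a*; every axis starts at 0. In all 9 genes the mock and quinpirole libraries do not overlap, with *Hspb11* at a ratio of 1.6 and the other 8 much closer to their mock level.

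None of the 3 Hsp90 genes passed the test, and their libraries overlapped. *Hsp90ab1* gave 555 to 578 FPKM in mock and 563 to 575 FPKM in quinpirole libraries, a difference of 0.01 ± 0.03 (limma adjusted p = 0.876). Its sign was not fixed, being -0.10 under quantile normalization and -0.05 after length correction. *Hsp90aa1*, the heat-inducible form, was 161, 162 and 199 FPKM in mock and 171, 199 and 176 FPKM in quinpirole libraries. Mock library 3 and quinpirole library 2 were thus the 2 high ones, and the difference was 0.07 ± 0.09 (limma adjusted p = 0.642). The ER form *Hsp90b1* (GRP94) was 166 ± 2.50 and 170 ± 4.36 FPKM (SD, n = 3; difference 0.03, limma adjusted p = 0.590).

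In the J-domain family 29 of 39 tested genes had a positive difference, against 6593 of all 12255, and the median was 0.08 on the log2 scale. In every quinpirole library 15 lay higher and 3 lay lower than in every mock library, against 20% and 16.9% of all tested genes. Against 5.74% of all tested genes called higher, 1 gene of the 39 passed the test. This was *Dnajc8*, a J-domain protein associated with the splicing machinery (chromosome 4, 132535550 to 132553742, plus strand), at 52.3, 53.1 and 53.0 FPKM in mock and 57.9, 58.8 and 62.7 FPKM in quinpirole libraries. The mock libraries were nearly equal, the groups did not overlap, and the difference was 0.18 ± 0.04 (limma adjusted p = 0.0404). By class, the 4 tested genes of class A had a median of 0.13, the 11 of class B 0.09 and the 24 of class C 0.08, so the classes were close to each other.

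Several J-domain genes had larger differences than *Dnajc8* but more spread. *Dnajc19*, a subunit associated with the import motor of the inner mitochondrial membrane, gave 13.5, 16.6 and 17 FPKM in mock and 18.3, 22.4 and 19.1 FPKM in quinpirole libraries. Its groups were separate and its difference of 0.33 ± 0.10 was the largest of the family (limma adjusted p = 0.0758). *Dnajb3*, a gene of testis with a single exon, followed at 0.30 ± 0.16 with overlapping groups and at most 3.54 FPKM (limma adjusted p = 0.255). *Dnajc24*, needed for the diphthamide modification of elongation factor 2, differed by 0.24 ± 0.13 and was highest in quinpirole library 1 at 20.9 FPKM, where the other quinpirole libraries had 15.6 and 14.8 FPKM and the mock libraries 12.9 to 15.5 FPKM (limma adjusted p = 0.234). *Dnajb1*, the HSF1-induced partner of Hsp70, was 24.3, 26.1 and 26.7 FPKM in mock and 28.0, 28.9 and 29.0 FPKM in quinpirole libraries. Although *Dnajb1* is induced with *Hspa1a* and *Hspa1b* by heat, its libraries here were separate in the opposite direction, with a difference of 0.15 ± 0.05 that did not pass (limma adjusted p = 0.0772). *Dnajb11*, a BiP partner of the ER, was 54.9 ± 0.75 and 58.4 ± 2.0 FPKM (SD, n = 3; difference 0.09, limma adjusted p = 0.169).

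The lowest differences of the family belonged to *Dnajb14*, a J-protein of the ER membrane, and *Dnajc13*, an endosomal J-protein. *Dnajb14* gave 4.69, 4.47 and 4.09 FPKM in mock and 3.67, 3.35 and 3.86 FPKM in quinpirole libraries, without overlap and with a difference of -0.23 ± 0.07 (limma adjusted p = 0.0822). *Dnajc13* differed by -0.19 ± 0.07 (limma adjusted p = 0.115) and overlapped only because mock library 3, at 10.2 FPKM, was below quinpirole library 1. Without mock library 3 its difference was -0.25 and passed at an adjusted p of 0.0498. Both are among the members with the longest exonic sequence (15741 and 11938 bases), and after length correction their differences were -0.03 and -0.06.

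*Hspd1* and *Hspe1* together form the mitochondrial chaperonin and were both called higher. *Hspd1* (chromosome 1, 55077835 to 55088243, minus strand) gave 56.7, 58.4 and 59.4 FPKM in mock and 66.3, 69.7 and 66.7 FPKM in quinpirole libraries. *Hspe1* (chromosome 1, 55088132 to 55091307, plus strand) gave 78.8, 74.7 and 73.8 FPKM and 86.5, 93.9 and 83.6 FPKM. Neither gene's groups overlapped, quinpirole library 2 was the highest in both, and both differences came to 0.21 on the log2 scale (SE 0.04 and 0.05, limma adjusted p = 0.0251 and 0.0451). Of the 50-base words of *Hspd1*, 44.8% occur in transcripts of other genes, mainly its pseudogene copies. The remaining gene, *Hspbp1*, a nucleotide exchange factor of Hsp70, was 41.5 ± 1.69 and 43.5 ± 1.5 FPKM with overlapping groups (SD, n = 3; limma adjusted p = 0.367).

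**Figure D3:**
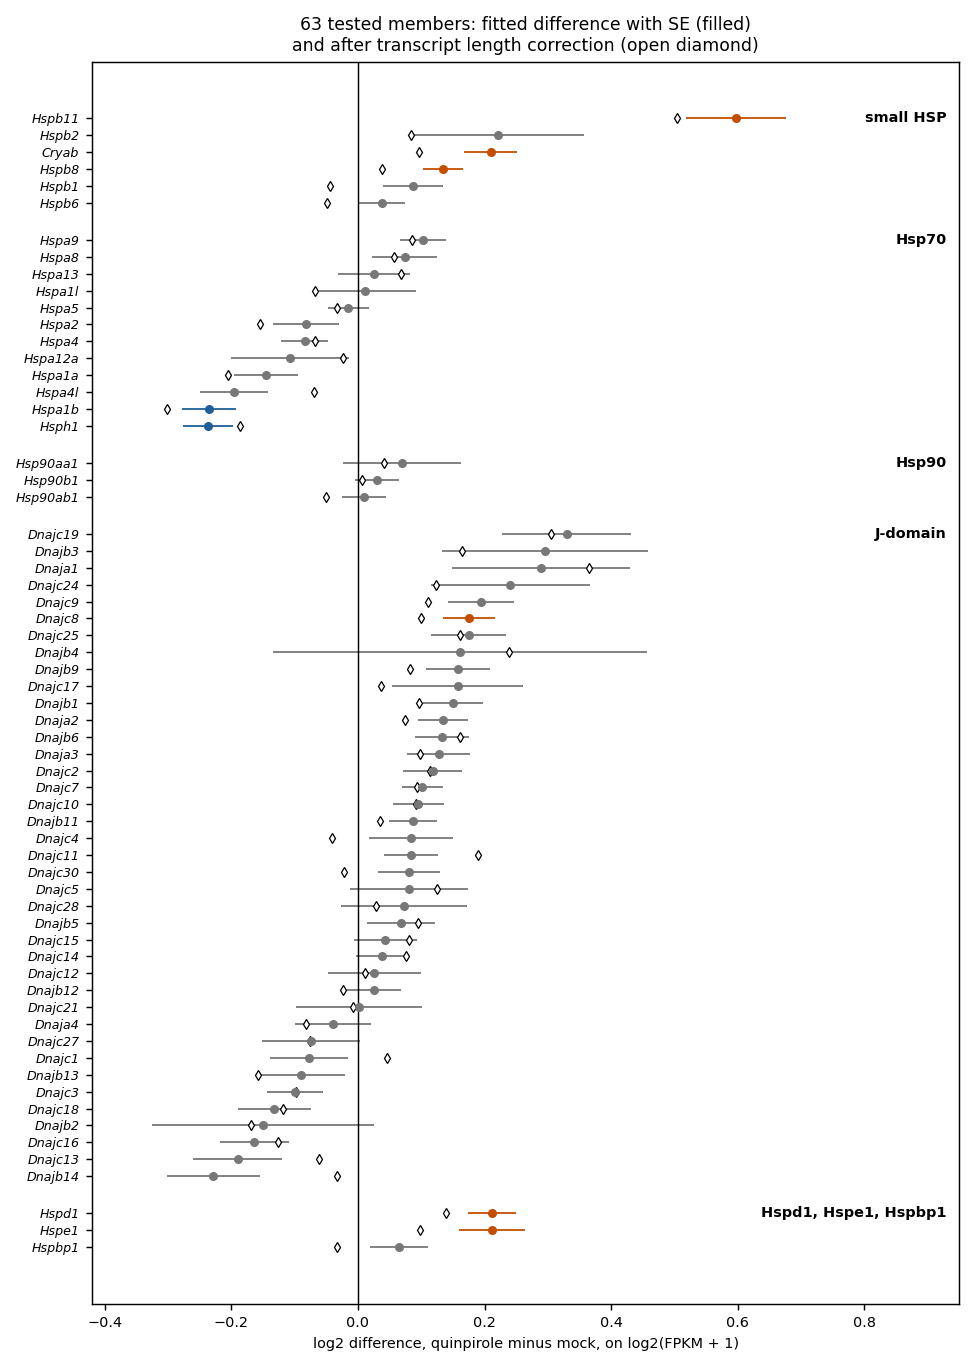
Fitted difference between quinpirole and mock on log2(FPKM + 1) with its SE (filled points and lines) and the same difference after transcript length correction (open diamonds) for the 63 tested members, ordered within families. Orange points passed an adjusted p of 0.05 as higher (6 genes) and blue points as lower (2 genes); all 6 small heat shock genes lie right of 0 before the correction, *Hspb1* and *Hspb6* left of it afterwards, and 8 of 12 Hsp70 genes lie left of it.

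Grouped by compartment, all 10 mitochondrial members had positive differences, against 6593 of all 12255 tested genes. *Dnajc4* and *Dnajc30* turned to -0.04 and -0.02 after length correction. In 7 of the 10 the groups did not overlap, against a background of 20%. Of the 10, 2 (*Hspd1* and *Hspe1*) passed the test, against 5.74% of all tested genes called higher. After length correction only *Hspd1* passed (limma adjusted p = 0.0496, and 0.288 for *Hspe1*). The summed level of the 10 members was 308 to 310 FPKM in mock and 335 to 358 FPKM in quinpirole libraries, with a median difference of 0.09 both before and after length correction. The list of 8 ER members (*Hspa5*, *Hspa13*, *Hsp90b1*, *Dnajb9*, *Dnajb11*, *Dnajc1*, *Dnajc3* and *Dnajc10*) is not complete. For example, it does not hold *Dnajb14*, described above, which was lower in every quinpirole library. The 8 listed members gave 5 positive and 3 negative differences, a median of 0.03 and no call. Their summed level of 568 to 581 FPKM in mock overlapped that of 574 to 595 FPKM in quinpirole libraries. *Dnajc3* (P58IPK), an inhibitor of the ER stress kinase PERK that carries the ER element printed above, was 41.8 ± 1.12 and 39.0 ± 1.63 FPKM (SD, n = 3; difference -0.10, limma adjusted p = 0.171).

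The 13 members listed as HSF1 targets did not share a direction. *Cryab*, *Hspd1* and *Hspe1* were called higher (5.74% of all tested genes were) and *Hspa1b* and *Hsph1* lower (5.18% were). The median over the list was 0.07. In every quinpirole library 4 of the 13 were higher and 4 lower, against 20% and 16.9% of all tested genes. The 4 lower ones, *Hspa1a*, *Hspa1b*, *Hsph1* and *Hspa4l*, all belong to the Hsp70 family. *Hsph1* and *Hspe1* both carry the longer GAA array, that of *Hsph1* after its RefSeq start site, and were called in opposite directions. *Hsf1* itself was 17 to 18.8 FPKM in all 6 libraries with overlapping groups (difference -0.06, limma adjusted p = 0.415). *Hsf2* was 6.66 to 7.45 FPKM, also with overlapping groups (limma adjusted p = 0.631). The 8 tested immediate early genes, which respond to the handling of tissue, had a median of 0.05 with no call, and 3 had negative differences. Of the 8, 2 were higher in every quinpirole library, against 20% of all tested genes. These were *Nr4a1* (difference 0.34, limma adjusted p = 0.0603) and *Ier2* (0.13, limma adjusted p = 0.171). *Fos* stood at 19.4 to 20.7 FPKM in every library.

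Of 30 other genes of the pathway, the heat shock factors and co-chaperones, 21 had positive differences and 1 passed the test. This was *Grpel1*, the nucleotide exchange factor of mitochondrial Hsp70, at 13.3, 13.9 and 13.9 FPKM in mock and 16.0, 16.5 and 15.9 FPKM in quinpirole libraries (difference 0.22 ± 0.04, limma adjusted p = 0.0287). The organizing co-chaperone *Stip1* was also higher in every quinpirole library but missed the threshold (0.12 ± 0.03, limma adjusted p = 0.0717). All 8 subunit genes of TRiC, the cytosolic chaperonin that folds actin and tubulin, had positive differences with a median of 0.16, and 4 of them (*Tcp1*, *Cct2*, *Cct4* and *Cct6a*) were called higher. After length correction *Tcp1* and *Cct4* still passed, and *Cct2* and *Cct6a* did not (limma adjusted p = 0.127 and 0.0808). *Tcp1* gave 64.1, 69.2 and 68.1 FPKM in mock and 80.4, 87.4 and 79.8 FPKM in quinpirole libraries, a difference of 0.29 ± 0.05 (limma adjusted p = 0.0250). These shares of 1 in 30 and 4 in 8 stand beside the 5.74% called higher among all tested genes, of which 6593 of 12255 had a positive difference.

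The differences moved with gene length, in the set as in all genes. Spearman's rho between exonic length and the log2 difference was -0.47 over the 63 tested members and -0.47 over 12223 genes, a description across genes, which are not independent. In the shortest quintile of all genes, with a median length of 1745 bases, the median difference was 0.12, and in the longest quintile, with 10100 bases, it was -0.11. The small heat shock family has a median exonic length of 1479 bases, against 4301 for the Hsp70 family and 4476 for the J-domain family. When each library was corrected for its relation to length, the median of the small family went from 0.17 to 0.06 and that of the Hsp70 family from -0.08 to -0.07, while the J-domain family stayed at 0.08. Among all tested genes 2.09% were then called higher and 2.06% lower, and of the 8 called members *Hspb11*, *Hspd1*, *Hspa1b* and *Hsph1* still passed. *Cryab*, *Hspe1* and *Dnajc8* kept their direction at 0.10 each but did not pass (limma adjusted p = 0.0966, 0.288 and 0.188), nor did *Hspb8*. The correction would also remove a true change related to length.

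**Figure D4:**
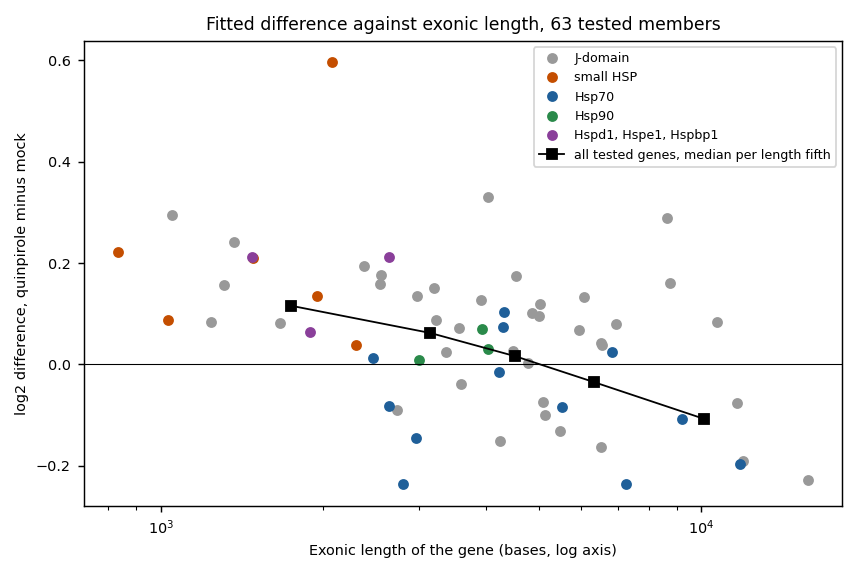
Fitted log2 difference of the 63 tested members against exonic length in bases (log axis), coloured by family, with the median of all tested genes in each quintile of length (black squares). The medians run from 0.12 in the shortest to -0.11 in the longest quintile, small heat shock genes lie at the short end, and *Hspa1b*, *Hsph1* and *Hspb11* lie far from the line.

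Within a group, 5 of the 63 tested members had a highest library more than 1.5 times the lowest (7.94%, against 8.26% of all tested genes). The widest was *Dnajb4*, a class B J-protein with 7 annotated transcripts, at 23.1, 12.3 and 24.9 FPKM in mock and 25.4, 14.8 and 26.8 FPKM in quinpirole libraries. In it library 2 of each group was low, so that the spread was shared by both groups. *Dnaja1* was low in mock library 2 alone (51.6 FPKM, where the other 5 libraries had 71.9 to 85.1 FPKM), and its difference of 0.29 ± 0.14 did not pass (limma adjusted p = 0.203). *Dnajb2*, a J-protein known from neurons, was high in mock library 3 (36.5 FPKM) and quinpirole library 2 (29.7 FPKM), with 22.4 to 24 FPKM elsewhere. The other wide members, *Dnajb3* and *Hspb2*, were expressed at under 5 FPKM in every library.

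**Figure D5:**
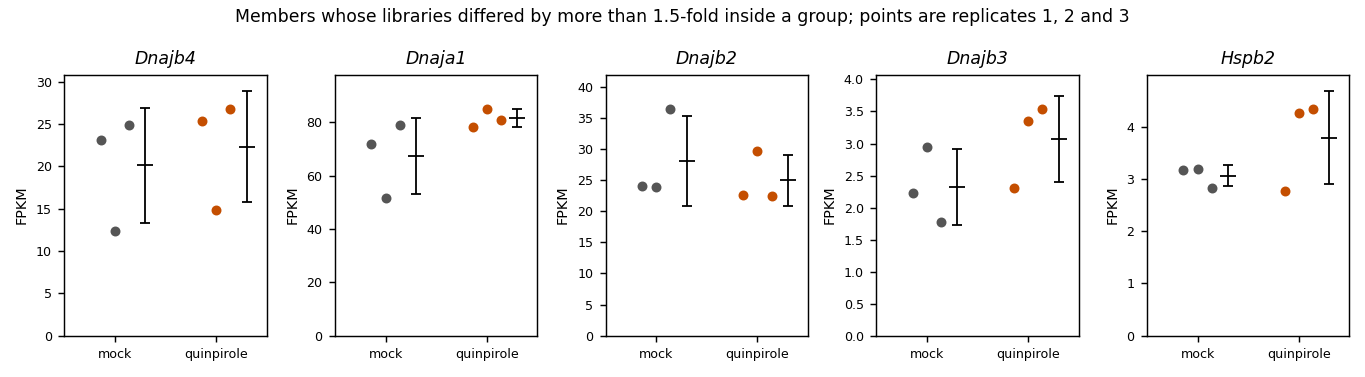
FPKM in each library (points; replicates 1 to 3 from left to right) with the mean and SD (bars) of the 5 tested members whose highest library exceeded the lowest of its group by more than 1.5 times; axes start at 0. *Dnajb4* is low in library 2 of both groups (12.3 and 14.8 FPKM), and *Dnaja1* is low in mock library 2 alone (51.6 FPKM).

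Leaving out 1 library removed most calls, among the members as among all tested genes, except when it was mock library 3. Fits with fewer libraries also leave fewer degrees of freedom. Without mock library 1 or 2, or without quinpirole library 1, none of the 63 members passed an adjusted p of 0.05 in limma, although 16, 22 and 24 of them had an unadjusted p under 0.05. The counts among all 12255 genes were then 3056, 2891 and 3374. In these fits 6, 3 and 11 of all tested genes passed the adjusted threshold, against 1339 with every library. Without quinpirole library 2 or without quinpirole library 3, *Hspb11* was the only member that passed. Without mock library 3, 7 members passed, and *Cryab*, *Hspa1b*, *Hspb11*, *Hspd1* and *Hsph1* were among them. All 8 called members kept the sign of their difference in each of these fits.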

How the data were processed

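Astrocyte RNA of 6 libraries, 3 mock and 3 quinpirole by the treatment label, was sequenced as paired ends. Per the labels and the study's methods, the authors mapped reads with TopHat2 to GRCm38, and the deposited unit is FPKM, with a single value for each gene in each library. The program that computed FPKM is not given in the sources used here, and no read counts were used. Depth was therefore read from the spacing of low values in 1254 genes with 1 transcript. Of the 172 to 192 low values used per library, 60.9% to 67.0% lay within 0.1 of a whole fragment (20% by chance). It limits the precision of members under 1 FPKM.

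Ensembl identifiers were matched to symbols (17090 of 17193). Positions and exonic lengths came from GENCODE M21 on GRCm38; the annotation used for FPKM may have been another. Promoters came from RefSeq (GRCm38.p6). Genes with a mean of at least 1 FPKM were tested on log2(FPKM + 1), with limma 3.58.1 under R 4.3.3, using lmFit and trended eBayes. The p-values are two-sided, were adjusted over 12255 genes by Benjamini-Hochberg, and were called under 0.05. On simulated data 193 of 200 genes shifted by 1 log2 unit were recovered, with 6 unchanged genes called. That shift is larger than the difference of any member, and the simulated noise was independent between genes. The simulation therefore does not show how well differences as small as those reported here are recovered. For length correction, a loess curve (span 0.3) of each library's deviations from the gene means on log2 length was subtracted. Tables and figures were made with Python 3.11.15, pandas 2.3.3 and matplotlib 3.10.9.

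The members, families, gene lists and tests were chosen with earlier results of these data known. Members described with values are those past the threshold, the 3 most abundant of each of the small, Hsp70, Hsp90 and J-domain families, the 5 largest differences in either direction and 13 HSF1 targets. Others named for a low or uneven level, for library spread or as a list's example were chosen after their values were seen. Alternatives were the omission of the FPKM filter or its rise to 5, a pseudocount of 0.1, scaling by median ratios, quantile normalization, eBayes without trend or with robust estimation, length correction, a replicate block, the sum of *Hspa1a* and *Hspa1b*, and the omission of each library. Protein sequences were not used here.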

Additional observations from a re-analysis of the deposited data

How the results depend on the processing

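The 8 called members kept their sign under all 16 alternatives. Of 400 values of 25 named members, 314 kept their direction and side of the threshold, 73 no longer passed, 3 newly passed and 10 turned. Under 4 alternatives, namely testing all genes without the FPKM filter, quantile normalization, untrended eBayes and length correction, 2 members were higher in each case, and the genes called among all tested were 633, 783, 714 and 509 in that order, against 1339; the median of the small family was then 0.131, 0.055, 0.172 and 0.061, and with a minimum mean of 5 FPKM it was 0.134. Under quantile normalization the medians of the Hsp70, Hsp90 and J-domain families were -0.122, -0.069 and 0.063, and the differences of *Hspb1*, *Hspa8*, *Hsp90ab1*, *Hsp90aa1* and *Hsp90b1* turned to -0.042, -0.098, -0.097, -0.037 and -0.069. With length correction the Hsp90 median was 0.006, and *Hspb1* and *Hsp90ab1* turned to -0.044 and -0.050, as they did in the fit that added the replicate block, where the family medians were also 0.061 and 0.006. The cause of these shifts was not tested.

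The sources do not say whether the replicate numbers pair the libraries. Deviations of same-numbered libraries correlated at 0.03, -0.07 and -0.10, and those of differently numbered ones at -0.10 to 0.15. With 3 libraries per group these values cannot settle whether the design was paired. With a replicate block 2 genes in all passed, and 0 members higher and 0 lower (3308 genes and 22 members had an unadjusted p under 0.05); with the block and length correction together 0 genes passed (2723 and 14). Omitting 1 library at a time gave 0 to 4 members higher, 0 to 3 lower, and 3 (without mock library 2) to 1215 (without mock library 3) genes in all. The small family median then lay between 0.139 and 0.175, the Hsp90 median between 0.008 and 0.031, and the difference of *Hsp90ab1* between -0.005 and 0.025. The alternatives with fewer libraries or an added block leave fewer degrees of freedom.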

Other observations

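Because *Hspb11* encodes a subunit of intraflagellar transport, other genes named for this transport were listed after its value had been seen. All 14 genes of the files whose symbol is Ift followed by a number were taken. Subunits under other symbols, as *Hspb11* itself is, are not held by this list. Of the 14, none was called higher, 2 were called lower (5.18% of all tested genes were), 9 had a positive difference, and the median was 0.08 on the log2 scale. *Ift27*, whose product binds that of *Hspb11*, gave 26.8, 26.6 and 30.7 FPKM in mock and 30.8, 31.1 and 29.5 FPKM in quinpirole libraries, with overlapping groups and a difference of 0.12 ± 0.06 (limma adjusted p = 0.227). *Ift20* and *Ift52* were higher in every quinpirole library without passing (differences 0.19 and 0.21, limma adjusted p = 0.123 and 0.0790). The 2 lower genes, *Ift140* and *Ift172*, encode large subunits, and neither passed after length correction (limma adjusted p = 0.194 and 0.0813). *Ift172* gave 13.9, 13.4 and 13.6 FPKM in mock and 12.1, 11.4 and 11.9 FPKM in quinpirole libraries, and fell by 0.19 ± 0.05 on the log2 scale (limma adjusted p = 0.0438). *Foxj1*, the regulator of motile cilia in ependymal cells, was 118 to 130 FPKM over the 6 libraries with overlapping groups (limma adjusted p = 0.586). The ependymal marker *Dynlrb2* gave 8.54, 8.77 and 12.3 FPKM in mock and 6.95, 7.95 and 7.09 FPKM in quinpirole libraries, without overlap. Its difference of -0.37 ± 0.13 did not pass. After length correction it was -0.51 and passed (limma adjusted p = 0.0417). The ependymal marker *Ccdc153* differed by 0.26 with overlapping groups (limma adjusted p = 0.352).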
